A study of Mus musculus with 12 samples.

Results

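The genes described here are 40 cell cycle and proliferation genes, chosen by symbol. Each symbol was matched to its Ensembl identifier in the count table of every tumor, and all 40 were found among 49315 genes. They comprise the G1 cyclin Ccnd1, 16 genes of the G1/S transition and S phase, the transcription factor Mybl2, and 22 genes of G2 and mitosis (G2/M).

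RNA was sequenced from 12 subcutaneous TRAMP-C2 tumors, 3 in each of 4 treatment groups. TRAMP-C2 is 1 cell line, established from a prostate tumor of the transgenic TRAMP mouse, so all 12 tumors share its origin. The hosts were male C57BL/6J mice aged 6 to 8 weeks when the cells were injected under the skin of the flank, and they kept their own immune system. Treatment went into the tumor once it measured about 200 mm3, and tumors were collected on day 6. HBSS-treated tumors (19, 22R and 22LL) received 3 doses of 50 µl of the saline vehicle. Tumors treated with cyto-IL-15, a form of interleukin-15 that attaches to cell membranes (9R, 13 and 20LL), received 2 doses of 10 µg. Tumors treated with ADU-S100, a cyclic dinucleotide agonist of STING (17LL, 18R and 22LR), received 3 doses of 50 µg. Combination-treated tumors (20L, 22 and 28LL) received both agents at those doses.

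Cells commit to division in G1, when D-type and E-type cyclins with their kinases inactivate RB proteins and free E2F factors to switch on the genes of DNA replication. Later in the cycle MYBL2 and FOXM1, working with the MuvB complex, switch on the genes of G2 and mitosis. Transcripts of both waves are abundant in dividing cells and low in resting ones, and for that reason such genes serve as readouts of proliferation in tumors.

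The promoters of the members show these different regulatory letters. RefSeq start sites on the mouse assembly GRCm38.p6 gave a window from 250 bases before to 50 bases after the start for 32 of the 40 genes, 14 of them G1/S and S phase and 17 G2/M. Windows were searched on both strands for the cell cycle homology region (CHR, letters TTTGAA), the CCAAT box (letters CCAAT) and an E2F site (TTTNNCGC, where each N is C or G). A member was counted when any of its windows matched, whereas the shares of all windows are per window, so the measures differ for genes with several windows. CHR letters stood in 12 of 17 G2/M genes and 2 of 14 S phase genes, compared with 17.9% of all 32851 windows. CCAAT letters stood in 15 of 17 and 9 of 14, compared with 37.4% of all windows. E2F letters stood in 1 of 17 G2/M genes and 6 of 14 S phase genes, compared with 2.26% of all windows. Both CHR and CCAAT letters were found together in a window of 12 G2/M genes and 2 S phase genes, and in 6.95% of all windows. A match describes the letters only and is not evidence that a factor binds there. The 160 bases before the start are printed for 4 G2/M genes and 3 S phase genes, chosen after the matches were seen, to show the layouts side by side. They run 5′ to 3′ along the strand of the gene, and capitals mark the CHR, CCAAT and E2F letters on either strand, with overlapping matches merged. The stretches are those of Top2a (chr11:99024190-99024349, minus strand), Cdk1 (chr10:69352913-69353072, minus strand), Cdc20 (chr4:118437344-118437503, minus strand), Kif11 (chr19:37376222-37376381, plus strand), Mcm6 (chr1:128359706-128359865, minus strand), Mcm5 (chr8:75109349-75109508, plus strand) and Rrm2 (chr12:24708094-24708253, plus strand).
Top2a: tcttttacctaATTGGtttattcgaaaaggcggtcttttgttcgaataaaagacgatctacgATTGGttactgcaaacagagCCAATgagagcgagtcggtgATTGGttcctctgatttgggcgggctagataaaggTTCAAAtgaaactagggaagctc
Cdk1: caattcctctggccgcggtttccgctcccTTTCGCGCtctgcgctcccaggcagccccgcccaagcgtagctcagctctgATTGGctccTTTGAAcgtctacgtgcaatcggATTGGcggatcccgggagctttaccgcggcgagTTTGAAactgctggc
Cdc20: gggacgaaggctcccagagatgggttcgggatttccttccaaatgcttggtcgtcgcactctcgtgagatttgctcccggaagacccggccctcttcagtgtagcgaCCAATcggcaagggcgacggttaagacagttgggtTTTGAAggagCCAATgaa
Kif11: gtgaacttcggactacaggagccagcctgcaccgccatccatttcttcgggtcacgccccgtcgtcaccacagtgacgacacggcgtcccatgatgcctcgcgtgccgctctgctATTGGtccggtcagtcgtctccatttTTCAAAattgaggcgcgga
Mcm6: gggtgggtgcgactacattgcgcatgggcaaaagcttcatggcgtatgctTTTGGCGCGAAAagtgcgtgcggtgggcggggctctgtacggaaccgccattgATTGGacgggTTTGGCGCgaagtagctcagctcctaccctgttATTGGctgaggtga
Mcm5: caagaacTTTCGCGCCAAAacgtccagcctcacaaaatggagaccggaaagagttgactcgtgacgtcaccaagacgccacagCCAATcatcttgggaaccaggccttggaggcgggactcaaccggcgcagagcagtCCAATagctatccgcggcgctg
Rrm2: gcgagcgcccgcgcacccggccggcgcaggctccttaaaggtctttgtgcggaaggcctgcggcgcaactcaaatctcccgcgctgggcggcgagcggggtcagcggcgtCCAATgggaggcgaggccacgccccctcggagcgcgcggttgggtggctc
Top2a, Cdc20 and Kif11 have CHR and CCAAT letters and no E2F match in this stretch. Cdk1 has all 3. Mcm6 and Mcm5 have E2F and CCAAT letters and no CHR match, and Rrm2 has the CCAAT letters alone.

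Library totals ranged from 48772204 to 103700199 counts, and all 40 members passed the filter on low counts and were tested in every comparison. Levels below are CPM, the counts of a gene scaled by the library total, after TMM normalization. Log2 fold changes are given ± SE with the adjusted p of edgeR, and positive values are higher in the second-named group. Tumors 13 (cyto-IL-15) and 28LL (combination) stood apart from the rest. Across genes their log2 levels correlated with those of the other tumors at r = 0.794 to 0.916, compared with 0.936 to 0.989 among the other 10. Yap1 took 3.32% of the counts of tumor 13, at 37378 CPM, and stood at 5049 CPM in HBSS tumor 22LL and 1142 CPM in tumor 28LL, compared with 96.7 to 143 CPM elsewhere. Epithelial markers were close to absent in most of these carcinoma-derived tumors, with a summed level of 8.80 to 16.9 CPM in 9 of them and 176, 610 and 51.4 CPM in tumors 22LL, 13 and 28LL.

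Members of the list differed widely in level. Per kilobase of exon, the highest mean levels over the 12 tumors were those of Ccnd1 (87.2 CPM per kb), Pcna (80.0 CPM per kb) and Top2a (45.5 CPM per kb), and the lowest were those of Ccne2 (4.02 CPM per kb) and Ttk (4.14 CPM per kb). The coefficient of variation over the 12 tumors was 11.2% for Mki67, the proliferation antigen Ki-67. It was 52.2% for Kif20a, 50.4% for Foxm1 and 48.02% for Bub1, where tumor 13 was the highest. Over the 10 tumors other than 13 and 28LL it was 9.32% for Mki67, 19.98% for Kif20a, 15.6% for Foxm1 and 16.9% for Bub1.

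No member was differentially expressed in any of the 6 comparisons between groups, by the edgeR quasi-likelihood test, which required an adjusted p under 0.05 together with a log2 fold change beyond 1 in either direction. Without the fold change threshold the count was also 0 in each comparison. Of all tested genes edgeR called 3.53% for HBSS against ADU-S100, and 6.19% without the fold change threshold. With or without that threshold it called 0.0855% for cyto-IL-15 against ADU-S100 and 0.0% in each of the other comparisons. A count of 0 in those is not particular to the members. Differences between groups in the 40 genes were smaller than the spread between tumors could resolve, which does not show that the levels were equal. The summed level of the 40 genes was 3887 ± 259 CPM for HBSS, 4544 ± 1174 CPM for cyto-IL-15, 3805 ± 195 CPM for ADU-S100 and 4319 ± 1244 CPM for the combination (SD, n = 3). The spread within the cyto-IL-15 and combination groups exceeded the distance between any of these means. Apart from tumors 13 (5894 CPM) and 28LL (2931 CPM), the sums in these groups were 3762 and 3975 CPM for cyto-IL-15 and 5334 and 4693 CPM for the combination.

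**Figure D1:**
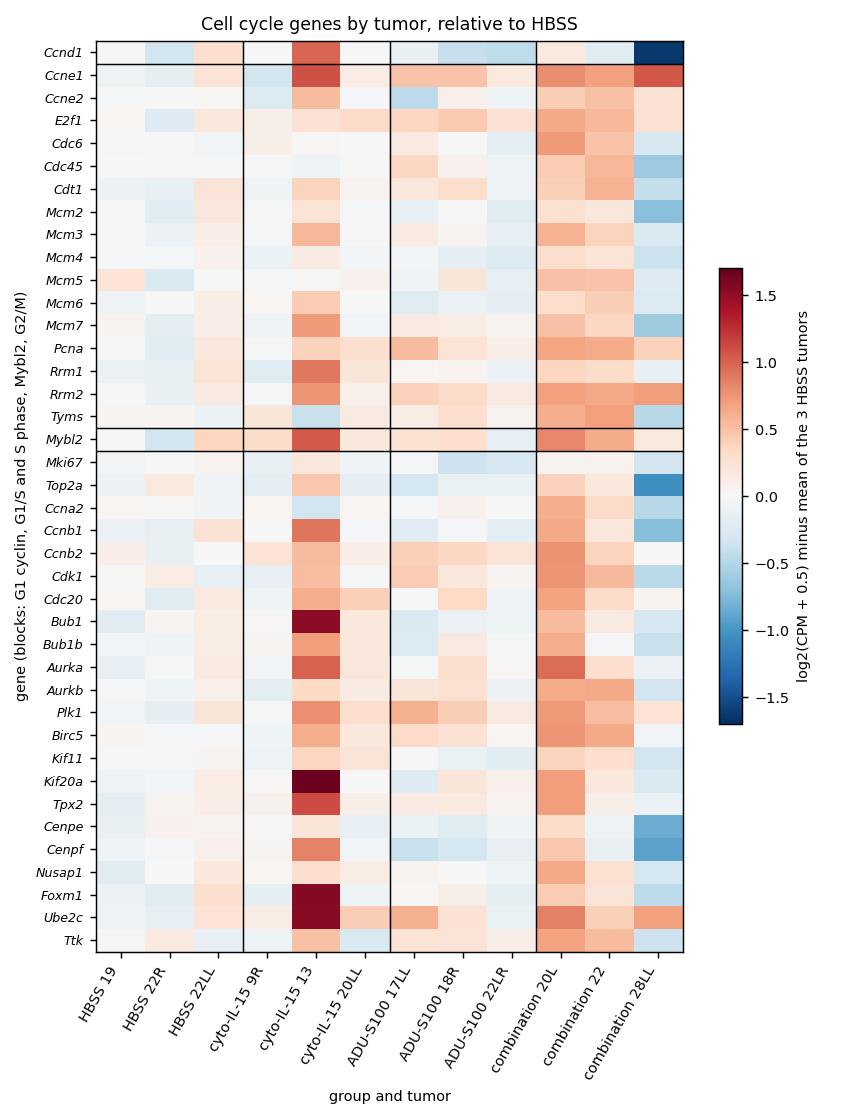
Level of each of the 40 genes (rows, in blocks of G1 cyclin, G1/S and S phase, Mybl2 and G2/M) in each of the 12 tumors (columns, by group), as log2(CPM + 0.5) minus the mean of the 3 HBSS-treated tumors. Cyto-IL-15 tumor 13 and combination tumors 20L and 22 are mostly red (higher), and combination tumor 28LL is mostly blue (lower), while the ADU-S100-treated tumors are pale.

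The comparison of HBSS with ADU-S100 asked how the STING agonist alone altered these transcripts, and it had the least spread. Member log2 fold changes ran from -0.33 to 0.40 with a median of 0.028, compared with 0.029 over all tested genes. This median depended on single tumors. When each tumor was left out it ran from -0.0038 without HBSS tumor 22R (19 of 40 members positive) to 0.11 without HBSS tumor 22LL (26 positive). It was negative only without tumor 22R. The SE of a member's fold change had a median of 0.13. None of the 40 was called, whereas 3.53% of all tested genes were differentially expressed and 6.19% passed an adjusted p under 0.05. At an unadjusted p under 0.05, 5 members were higher (background 12.6%) and 1 was lower (background 11.4%). The count higher was 0 without HBSS tumor 22R (background 8.95%) and 8 without ADU-S100 tumor 22LR (background 10.9%). DESeq2 and limma voom called 0 members after adjustment, and the share of all genes they called is not given here. E2f1, Tyms and Ccnb2 were higher in all 3 ADU-S100-treated tumors than in any HBSS-treated tumor (3 of 40, background 16.4%), and Mcm4, Mcm6, Top2a and Cenpf were lower (4 of 40, background 15.1%). Both counts were below the share of all genes.

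The comparison of HBSS with the combination gave a member median of 0.28, compared with 0.0092 over all tested genes, and 34 of 40 members had a positive log2 fold change. By edgeR 0 members passed an adjusted p under 0.05 (background 0.0%). At an unadjusted p under 0.05, 7 members were higher (background 11.0%) and 0 were lower (background 7.17%). Without a fold change threshold limma voom called 0 members (background 0.0%). DESeq2 called 2, Ccne1 and Rrm2, where it called 6.64% of all genes, 4.66% higher. In data simulated for HBSS against ADU-S100, 11.2% of the DESeq2 calls were false, which exceeded the limit set for it. HBSS against the combination was not simulated, so the share of false calls here is not known. In 7 members, Ccne1, Ccne2, E2f1, Pcna, Rrm2, Plk1 and Ube2c, all 3 combination-treated tumors lay above every HBSS-treated tumor, a share close to the background of 15%. No member lay below in all 3 tumors (background 15.2%).

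This group was split. Tumor 20L lay above all 3 HBSS-treated tumors in 38 of 40 members and tumor 22 in 32, whereas tumor 28LL lay below all 3 in 27 members and was the lowest of the 12 tumors in 24. No share over all genes is given for these counts, and tumor 28LL also stood apart across genes. They therefore do not show a split particular to the members. The summed level of the 40 genes in HBSS-treated tumors, 3683 to 4179 CPM, lay below tumors 20L and 22 and above tumor 28LL. Without tumor 28LL, edgeR called 6 members higher with no fold change threshold (background 1.23% higher and 2.14% in either direction), namely Aurkb, Birc5, Cdc6, Cdk1, Rrm2 and Tyms, and none beyond an absolute log2 fold change of 1. A fit of the 10 tumors other than 13 and 28LL called these 6 with E2f1 and Ttk (8 members, background 1.54% higher and 2.37% in either direction). Tumor 28LL was left out after its values were seen. The median member fold change without it was 0.48, and without tumor 20L it was 0.11.

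Marker genes of other cell types also differed between these tumors, not all along the same split. The 5 fibroblast markers summed to 8245 CPM in tumor 28LL, 13940 CPM in 20L and 13578 CPM in 22, compared with 18942 to 24512 CPM in HBSS-treated tumors. Col1a1 and Col1a2 held most of each sum. Dcn stood at 685, 2552 and 2329 CPM in 28LL, 20L and 22, compared with 1700 to 2632 CPM with HBSS. Pdgfra stood at 110, 406 and 301 CPM (336 to 571 CPM with HBSS) and Lum at 130, 261 and 208 CPM (321 to 378 CPM). NK cell markers (6 genes) summed to 447 CPM in tumor 28LL, 124 CPM in 22 and 52.0 CPM in 20L, and to 10.8 to 17.7 CPM with HBSS. Skeletal muscle markers (6 genes) summed to 3359 CPM in tumor 28LL, 639 CPM in 22 and 40.2 CPM in 20L, and to 5.37 to 7.34 CPM with HBSS. Monocyte markers (4 genes) summed to 1643 CPM in tumor 28LL, 533 CPM in 22 and 275 CPM in 20L, and to 106 to 207 CPM with HBSS. For neutrophil markers (5 genes) the sums were 246, 27.0 and 26.8 CPM in the same order, and 16.8 to 21.3 CPM with HBSS. For T cell markers (8 genes) they were 148, 133 and 57.5 CPM, and 32.0 to 55.5 CPM with HBSS. Macrophage markers (7 genes) summed to 3440, 3059 and 2102 CPM, and to 2315 to 3137 CPM with HBSS. In both of these lists tumor 22 stood nearer 28LL than 20L. The part of all these markers in the member levels was not tested. In such bulk samples fewer dividing cells and less of these transcripts per cell cannot be told apart.

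The comparison of HBSS with cyto-IL-15 had a member median of 0.21, compared with 0.040 over all genes, and 35 of 40 members had a positive value. By edgeR 0 members were called (background 0.0%), and 0 passed an unadjusted p under 0.05 in either direction (background 2.13% higher and 1.67% lower). DESeq2 and limma voom called 0, without a share of all genes to set beside it. In no member did the groups separate (background 4.88% higher and 5.68% lower). Tumor 13 carried the positive median: it lay above all HBSS-treated tumors in 35 members and was the highest of the 12 in 20. Without it the median was 0.012 and 25 members were positive. No share over all genes is given for the counts of tumor 13, which also stood apart across genes. Fibroblast markers summed to 13765 CPM in tumor 13, compared with 18965 and 20969 CPM in tumors 9R and 20LL. Col1a1 and Col1a2 held most of that sum (5617 and 7775 CPM in tumor 13), and the other markers were proportionally lower. Dcn stood at 309 CPM in tumor 13, compared with 2084 and 1438 CPM in 9R and 20LL. Lum stood at 18.4 CPM (317 and 313 CPM) and Pdgfra at 45.1 CPM (326 and 509 CPM). Macrophage markers (7 genes) summed to 1246 CPM in tumor 13, compared with 2310 and 3674 CPM. With HBSS macrophage markers summed to 2315 to 3137 CPM, and their part in the member levels of tumor 13 was not tested.

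**Figure D2:**
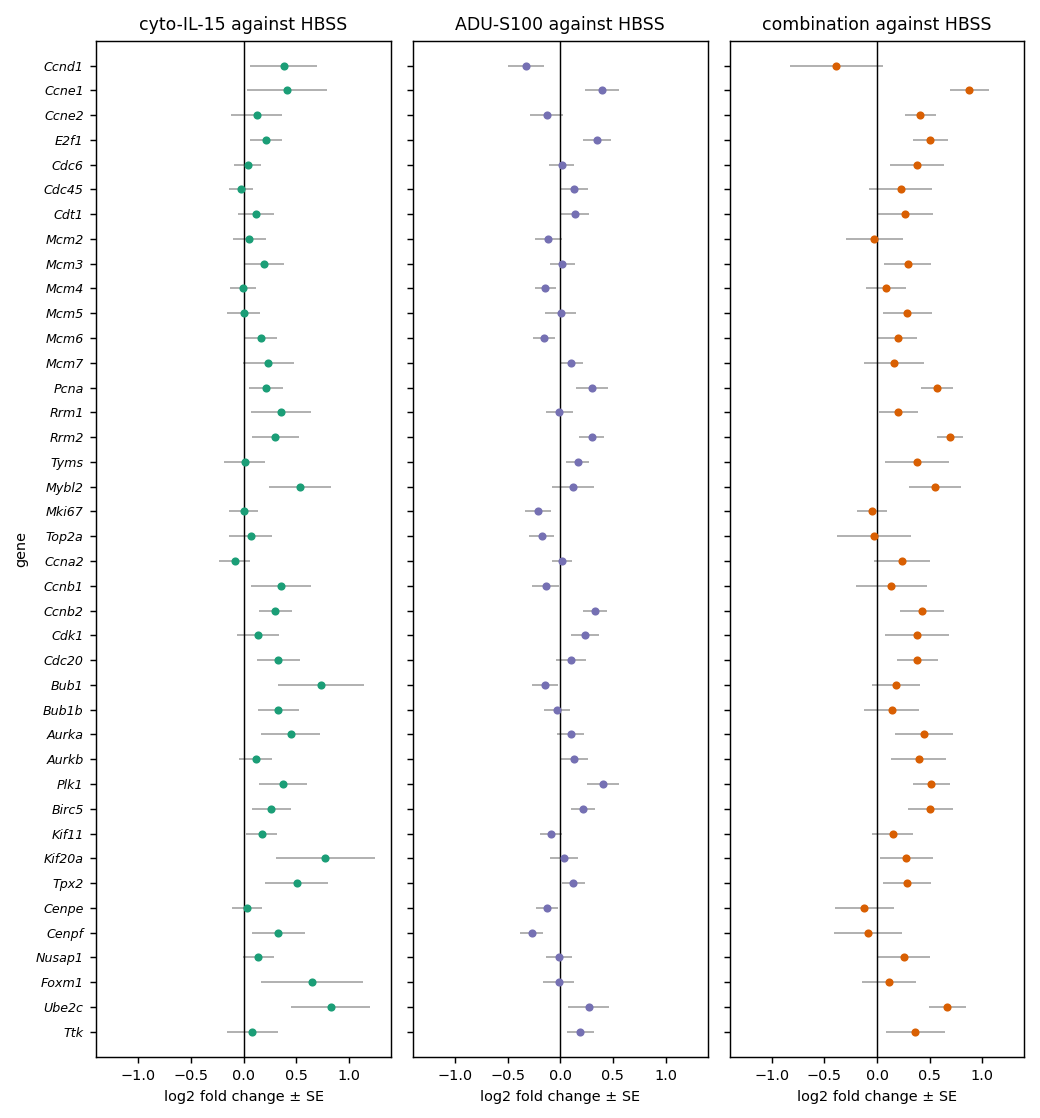
Log2 fold change (x axis) with its standard error (grey bars) of each of the 40 genes (y axis) against HBSS, by edgeR, for cyto-IL-15, ADU-S100 and the combination, each on 6 tumors. ADU-S100 values sit between -0.33 and 0.40, the largest combination value is 0.88 for Ccne1, and all 3 panels share the same HBSS-treated tumors.

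The remaining comparisons gave no called member either. Between cyto-IL-15 and ADU-S100, edgeR called 0 (background 0.0855%), and 2 members, Ccnd1 and Cenpf, were lower with ADU-S100 at an unadjusted p under 0.05 (background 4.01%), with 0 higher (background 3.84%). Without tumor 13 these counts were 0 lower (background 5.93%) and 2 higher (background 6.92%). Ccnd1, Mcm6, Ccnb1, Bub1 and Cenpf were lower in all 3 ADU-S100-treated tumors than in any cyto-IL-15-treated tumor (5 of 40, background 7.63%), and no member was higher (background 9.38%). Between cyto-IL-15 and the combination, 0 members were called (background 0.0%) and 0 passed an unadjusted p under 0.05 (background 3.13% higher and 1.85% lower). In the fit of the 10 tumors other than 13 and 28LL, 27 members were higher with the combination at an unadjusted p under 0.05 (background 5.99%). There 39 were positive and the median log2 fold change was 0.45, compared with 0.070 when those tumors were included. Tumors 13 and 28LL had the highest and lowest summed member levels of the 12 (5894 and 2931 CPM). Leaving them out therefore raises the combination against cyto-IL-15 by itself, and these counts are descriptions only. Pcna alone separated cyto-IL-15 and the combination, higher with the combination (1 of 40, background 6.14%), and no member was lower (background 6.59%). The margin in Pcna was slight, with 205.7 CPM in tumor 28LL and 205.5 CPM in tumor 13. Between ADU-S100 and the combination, 0 were called (background 0.0%) and Ccne1, Ccne2 and Rrm2 were higher with the combination at an unadjusted p under 0.05 (3 members, background 2.43%), with 0 lower (background 1.86%). In this comparison 39 of 40 members were positive, with a median of 0.22, compared with 9895 of 18689 and 0.023 over all tested genes. Without tumor 20L 23 members were positive with a median of 0.054, and without tumor 28LL 40 with 0.42. At an unadjusted p under 0.05 the count higher was 28 without tumor 28LL (background 2.94%), 31 in the fit of the 10 tumors (background 3.83%) and 0 without tumor 20L (background 6.68%). As tumor 28LL had the lowest summed level, the fits without it raise the combination by themselves. Ccne1, Ccne2 and Rrm2 were also higher in every combination-treated tumor than in any ADU-S100-treated tumor (3 members, background 4.68%), and no member was lower (background 6.19%). The interaction, which asks whether cyto-IL-15 changed a gene differently with ADU-S100 than with HBSS, called 0 members (background 0.0%), and 0 passed an unadjusted p under 0.05 (background 0.993% and 1.30%). DESeq2 also called 0 members in these 4 tests, and limma voom, run on the pairs of groups, called 0. Shares of all genes called by these tools are not given here.

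Ccnd1, the D-type cyclin that carries growth signals into the cycle, was highest in tumor 13 and lowest in tumor 28LL. Its level was 426, 336 and 512 CPM in HBSS-treated tumors and 417, 832 and 421 CPM in cyto-IL-15-treated tumors 9R, 13 and 20LL. ADU-S100-treated tumors had 384, 320.2 and 309 CPM and combination-treated tumors 20L, 22 and 28LL had 469, 367 and 134 CPM. The extremes were a tumor each of cyto-IL-15 and the combination, and ADU-S100 overlapped with HBSS (log2 fold change -0.33 ± 0.17, adjusted p = 0.281). Of its exonic bases 23.4% also belong to LTO1, so its counts may hold reads of that gene.

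Ccne1 encodes cyclin E1, which with CDK2 drives entry into S phase. HBSS-treated tumors had 12.5, 11.8 and 15.7 CPM and combination-treated tumors had 23.2, 21.7 and 27.9 CPM. The groups did not overlap and tumor 28LL was the highest of its group, but the edgeR test was not passed (log2 fold change 0.88 ± 0.19, adjusted p = 0.185). Levels were 10.6, 28.6 and 14.4 CPM with cyto-IL-15 and 18.8, 18.6 and 14.95 CPM with ADU-S100 (log2 fold change against HBSS 0.39 ± 0.16, adjusted p = 0.182). Tumor 13 was thus the highest of all 12, and tumor 9R of the same group the lowest.

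Ccne2, the second E-type cyclin, had 12.8, 12.9 and 13.2 CPM with HBSS and 17.5, 18.5 and 15.4 CPM with the combination (log2 fold change 0.41 ± 0.15, adjusted p = 0.238). The HBSS-treated tumors were nearly equal and all below the combination. Of its exonic bases 17.4% also belong to Ints8, which stood at 23.4 to 54.3 CPM in the 12 tumors, so its counts are uncertain. It had 11.0, 19.0 and 12.7 CPM with cyto-IL-15 and 9.44, 13.7 and 12.3 CPM with ADU-S100, and it was named, like Rrm2, Kif20a, Ube2c, Bub1, Ccnb2, Plk1 and Cenpf, after its values were seen.

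E2f1, the E2F factor best known for activating S phase genes, had 42.6, 35.8 and 47.3 CPM in HBSS-treated tumors. It had 44.6, 49.5 and 52.2 CPM with cyto-IL-15 and 53.7, 56.8 and 49.3 CPM with ADU-S100 (log2 fold change 0.35 ± 0.13, adjusted p = 0.146). With the combination it had 65.6, 61.9 and 49.7 CPM (log2 fold change 0.50 ± 0.17, adjusted p = 0.222). Both groups that received ADU-S100 lay above every HBSS-treated tumor, against the same 3 controls, and neither difference passed the adjusted threshold.

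MCM2 to MCM7 form the helicase that opens DNA at origins. Mcm2 had 198, 171 and 224 CPM with HBSS, 194, 231 and 193 CPM with cyto-IL-15 and 178, 198 and 171 CPM with ADU-S100. The combination gave 235, 225 and 120.1 CPM, with 20L and 22 at the upper end and 28LL the lowest of the 12 (log2 fold change -0.024 ± 0.27, adjusted p = 0.967). Mcm6 had 173, 183 and 196 CPM with HBSS and 159, 169.8 and 165 CPM with ADU-S100 (log2 fold change -0.16 ± 0.10, adjusted p = 0.385), 187, 249 and 185 CPM with cyto-IL-15 and 226, 246 and 156 CPM with the combination. The ADU-S100-treated tumors lay just below the HBSS-treated ones, by less than the test could resolve. Mcm7 had 168, 146 and 175 CPM with HBSS, 153, 269 and 157 CPM with cyto-IL-15, 179, 177 and 167 CPM with ADU-S100 and 229, 207 and 107 CPM with the combination. Its highest tumor was 13 and its lowest 28LL, and 12.6% of its exonic bases are shared with neighbouring genes.

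Pcna encodes the sliding clamp of the replication polymerases. HBSS-treated tumors had 156, 139 and 178 CPM and combination-treated tumors had 249.6, 242 and 206 CPM (log2 fold change 0.57 ± 0.15, adjusted p = 0.193). All combination-treated tumors, 28LL included, were above HBSS. It had 154, 206 and 192 CPM with cyto-IL-15 and 227, 184 and 170.0 CPM with ADU-S100, and these groups overlapped with HBSS. Named pseudogenes of Pcna, Ccnb1 and Ccnb2 exist, so their counts are uncertain where reads match both.

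Rrm2 encodes the regulated subunit of ribonucleotide reductase, which makes deoxynucleotides. It had 61.5, 57.6 and 70.1 CPM with HBSS and 102, 98.8 and 103 CPM with the combination (log2 fold change 0.69 ± 0.13, adjusted p = 0.185). The 3 combination-treated tumors agreed closely, unlike in most members, and all lay above the controls. With cyto-IL-15 it had 61.8, 106 and 66.9 CPM and with ADU-S100 82.8, 79.2 and 69.8 CPM (log2 fold change 0.30 ± 0.12, adjusted p = 0.177).

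The other G1/S and S phase members were Cdc6, Cdt1 and Cdc45, which load and start the helicase, Mcm3, Mcm4 and Mcm5, and Rrm1 and Tyms of nucleotide synthesis. Tyms was among the few members low in tumor 13, at 34.1 CPM against 46.2, 46.3 and 41.8 CPM with HBSS. Rrm1 stood at 255 CPM there, against 127, 125 and 161 CPM. In tumor 28LL Cdc45 stood at 28.9 CPM against 45.0, 45.4 and 43.6 CPM. Over all 16 genes of the list the median log2 fold change against HBSS was 0.14 for cyto-IL-15, 0.061 for ADU-S100 and 0.29 for the combination. Without tumor 13 the cyto-IL-15 value was 0.0079. The combination value was 0.50 without tumor 28LL and 0.16 without tumor 20L, and the ADU-S100 value was 0.0064 without HBSS tumor 22R.

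**Figure D3:**
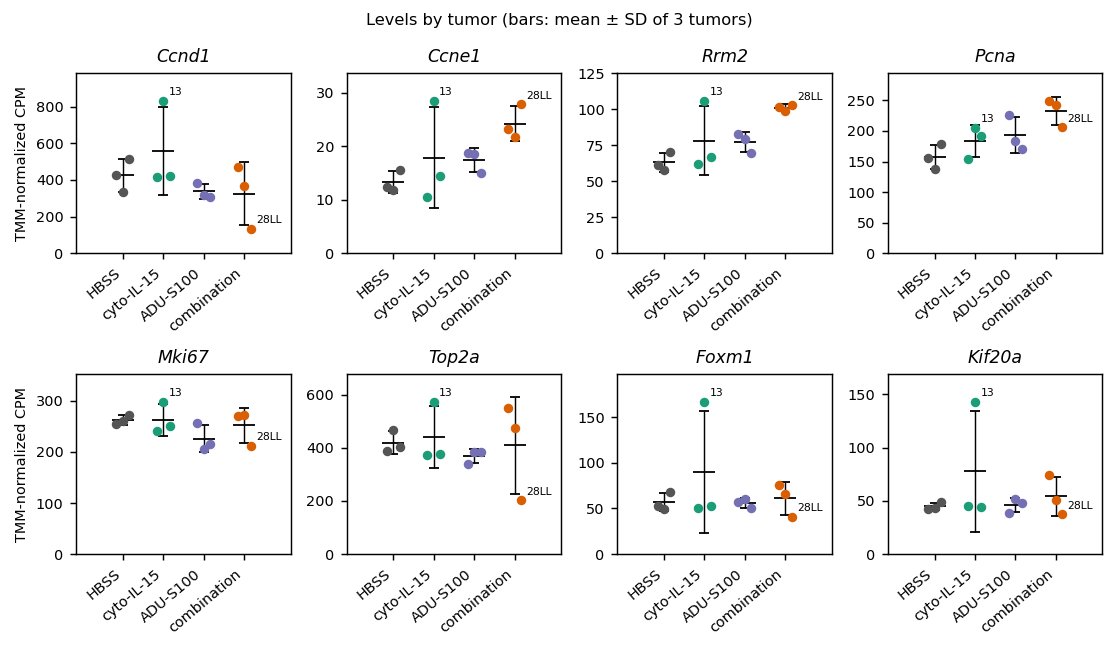
TMM-normalized CPM of 8 members in each tumor (points) with the mean and SD of 3 tumors (bars), by group, with tumors 13 and 28LL labelled. Rrm2, Pcna and Ccne1 are higher in all 3 combination-treated tumors than with HBSS, while Ccnd1 and Top2a are lowest in tumor 28LL and Foxm1 and Kif20a highest in tumor 13.

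Mybl2 encodes the MuvB-bound factor that prepares G2/M transcription. It had 23.8, 19.3 and 31.4 CPM with HBSS, 30.2, 50.6 and 27.6 CPM with cyto-IL-15, 29.1, 29.7 and 22.0 CPM with ADU-S100 and 43.1, 37.9 and 27.5 CPM with the combination. Tumor 13 was the highest, and the combination overlapped with HBSS through tumor 28LL (log2 fold change 0.55 ± 0.25, adjusted p = 0.295).

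Foxm1, the forkhead factor of the G2/M wave, had 52.5, 49.5 and 68.2 CPM with HBSS and 50.4, 167 and 52.9 CPM with cyto-IL-15. Tumor 13 stood at 2.94 times the HBSS mean, and the other cyto-IL-15-treated tumors were in the range of the controls (log2 fold change of the group 0.65 ± 0.48, adjusted p = 0.898). It had 57.3, 60.4 and 50.2 CPM with ADU-S100 and 76.2, 65.8 and 41.2 CPM with the combination.

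Mki67 and Top2a, which encode Ki-67 and the topoisomerase that untangles chromosomes, are common proliferation markers. Mki67 had 254, 260.5 and 273 CPM with HBSS, 240.1, 298 and 251 CPM with cyto-IL-15, 256, 206 and 215 CPM with ADU-S100 and 271, 273 and 212 CPM with the combination. It was the steadiest member, and its log2 fold change with ADU-S100 was -0.21 ± 0.12, adjusted p = 0.318. Top2a had 389, 468 and 401 CPM with HBSS, 374, 574 and 375 CPM with cyto-IL-15, 339, 385 and 385 CPM with ADU-S100 and 549, 474 and 203 CPM with the combination. ADU-S100-treated tumors lay below HBSS without passing the test (-0.18 ± 0.12, adjusted p = 0.393), and tumor 28LL was lowest of all.

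Cdk1 and its cyclins Ccna2, Ccnb1 and Ccnb2 form the kinases that start mitosis. Cdk1 had 91.0, 98.2 and 81.4 CPM with HBSS, 81.6, 129 and 87.9 CPM with cyto-IL-15, 121, 103 and 92.8 CPM with ADU-S100 and 152, 133 and 65.4 CPM with the combination. Its log2 fold change with the combination was 0.38 ± 0.30, adjusted p = 0.513 with all 3 tumors and 0.66 ± 0.12 (adjusted p = 0.0448) without tumor 28LL. Ccna2 had 110.0, 108 and 103 CPM with HBSS, 109.6, 85.4 and 109 CPM with cyto-IL-15, 105, 113 and 106 CPM with ADU-S100 and 165, 134 and 77.1 CPM with the combination. It was low in both tumors that stood apart, 13 and 28LL, and 12.5% of its exonic bases are shared with Exosc9. Ccnb2 had 50.0, 42.3 and 46.2 CPM with HBSS and 61.4, 58.7 and 53.7 CPM with ADU-S100 (log2 fold change 0.33 ± 0.11, adjusted p = 0.117), 54.1, 67.2 and 50.0 CPM with cyto-IL-15 and 78.3, 60.3 and 46.3 CPM with the combination. ADU-S100 and HBSS did not overlap in this gene.

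Plk1, a kinase of spindle assembly and mitotic exit, had 43.6, 39.8 and 51.9 CPM with HBSS, 44.2, 77.1 and 55.3 CPM with cyto-IL-15, 68.1, 60.3 and 50.1 CPM with ADU-S100 and 74.7, 64.6 and 52.8 CPM with the combination. The combination lay above HBSS in all 3 tumors (log2 fold change 0.51 ± 0.18, adjusted p = 0.227). Cenpf, a kinetochore protein, had 70.5, 73.1 and 79.1 CPM with HBSS and 57.0, 60.02 and 67.1 CPM with ADU-S100 (log2 fold change -0.27 ± 0.11, adjusted p = 0.171), 76.8, 133 and 71.7 CPM with cyto-IL-15 and 102, 67.9 and 39.3 CPM with the combination. Every ADU-S100-treated tumor lay below HBSS in Cenpf, and ADU-S100 overlapped with HBSS in Plk1.

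Kif20a, a kinesin of cytokinesis, had 42.3, 43.6 and 49.0 CPM with HBSS, 45.3, 143 and 44.6 CPM with cyto-IL-15, 38.6, 51.7 and 47.8 CPM with ADU-S100 and 74.0, 51.1 and 37.7 CPM with the combination. Tumor 13 stood at 3.19 times the HBSS mean. Of its exonic bases 33.2% also belong to Cdc23, which was at 74.8 CPM in tumor 13 and 37.2 to 47.4 CPM elsewhere. Bub1, a checkpoint kinase, had 24.4, 28.5 and 30.2 CPM with HBSS, 28.1, 80.0 and 31.4 CPM with cyto-IL-15, 23.2, 25.6 and 26.3 CPM with ADU-S100 and 40.4, 30.6 and 22.6 CPM with the combination, and tumor 13 again stood alone.

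Ube2c, the ubiquitin-conjugating enzyme of the anaphase-promoting complex, had 43.2, 41.6 and 54.2 CPM with HBSS, 50.5, 136 and 61.8 CPM with cyto-IL-15, 70.3, 54.5 and 42.4 CPM with ADU-S100 and 83.5, 61.1 and 74.7 CPM with the combination. Its log2 fold change with the combination was 0.67 ± 0.18, adjusted p = 0.193, and tumor 28LL lay above HBSS here. Of its exonic bases 22.8% also belong to Tnnc2, a muscle troponin, which was at 110.4 CPM in tumor 28LL and 0 in tumor 13. The part of such reads in the Ube2c level was not tested.

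The other G2/M members were Cdc20 and Bub1b of the checkpoint, Aurka, Aurkb, Birc5, Tpx2, Nusap1 and Kif11 of the spindle and chromosomal passenger complex, Cenpe of the kinetochore, Ccnb1 and Ttk. Tumor 13 was the highest of the 12 in 12 of the 22 G2/M genes and tumor 20L in 9. Tumor 28LL was the lowest in 14. No share over all genes is given for these ranks. Over the 22 genes the median log2 fold change against HBSS was 0.31 with cyto-IL-15, and 0.050 without tumor 13. It was 0.028 with ADU-S100, where 12 genes were positive and 10 negative, and -0.015 without ADU-S100 tumor 18R. It was 0.27 with the combination, 0.47 without tumor 28LL and -0.00043 without tumor 20L.

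S phase genes were set against G2/M genes within each tumor, as the difference between the medians of the lists on the log2 scale relative to HBSS. This difference does not depend on how a library is scaled. HBSS-treated tumors lay at 0.047, -0.097 and 0.013 (tumors 19, 22R and 22LL). Cyto-IL-15-treated tumors lay at -0.022, -0.23 and -0.073 (9R, 13 and 20LL). ADU-S100-treated tumors lay at 0.13, -0.055 and -0.025 (17LL, 18R and 22LR). Tumor 13 was therefore tilted furthest towards G2/M genes. Combination-treated tumors lay at -0.14, 0.22 and 0.064 (20L, 22 and 28LL), so by this measure 20L and 22, which both had high levels, were tilted opposite ways. The mean difference was -0.012 ± 0.075 for HBSS, -0.11 ± 0.11 for cyto-IL-15, 0.017 ± 0.10 for ADU-S100 and 0.049 ± 0.18 for the combination (SD, n = 3), and every group overlapped with HBSS. The tilt of 20L depended on the measure. Summed S phase CPM over summed G2/M CPM was 0.800, 0.946 and 0.982 in 20L, 22 and 28LL. With HBSS it was 0.860, 0.751 and 0.864, so 20L lay within that range and 28LL was furthest towards S phase genes.

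**Figure D4:**
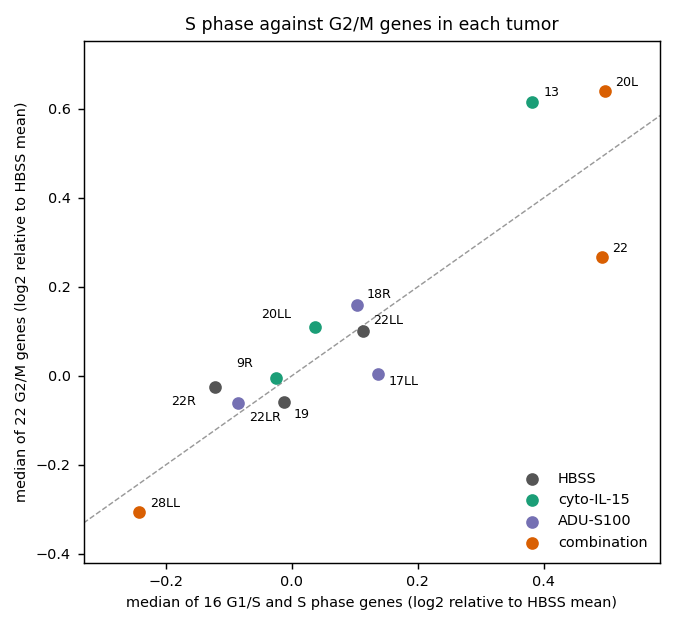
Median level of the 16 G1/S and S phase genes (x axis) and of the 22 G2/M genes (y axis) in each tumor, as log2 relative to the HBSS mean, with the dashed line where both are equal. Tumors 13 and 20L lie above the line, tumor 22 lies below it at the same S phase median as 20L, and tumor 28LL is lowest on both axes.

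The same tilt was read from genes outside the 40. Over 32 other S phase genes and 38 other G2/M genes the difference was -0.18 in tumor 13, -0.15 in 20L, 0.20 in 22 and 0.099 in 28LL. The other 8 tumors lay between -0.058 and 0.052. These lists share their libraries with the members and are no separate sample.

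In the comparison of HBSS with ADU-S100, other lists of the cell cycle held 3 genes with an adjusted p under 0.05 by edgeR. Cdkn1a, which encodes the CDK inhibitor p21, had 22.1, 28.1 and 23.1 CPM with HBSS and 82.9, 83.2 and 104.2 CPM with ADU-S100, and it was differentially expressed (log2 fold change 1.89 ± 0.14, adjusted p = 0.000695). Cdkn1a stood at 14.7, 37.5 and 15.8 CPM with cyto-IL-15 and 66.4, 73.7 and 190.0 CPM with the combination (2.19 ± 0.44, adjusted p = 0.185). Its ADU-S100-treated and HBSS-treated tumors did not overlap. Cdkn2d, the INK4 inhibitor p19, had 15.8, 15.5 and 14.4 CPM and 21.2, 22.7 and 20.4 CPM (0.49 ± 0.12, adjusted p = 0.0425). Cbx5, which encodes the heterochromatin protein HP1 alpha, was lower, with 276, 339.9 and 295 CPM and 157, 193 and 211 CPM (-0.70 ± 0.14, adjusted p = 0.0251). Of the 10 CDK inhibitor and RB family genes 2 were higher and 0 lower, and of the 38 other G2/M genes 0 were higher and 1 was lower (background 3.78% higher and 2.41% lower). In the lists of other S phase genes (32), other cyclins and CDKs (6), other E2F and MuvB genes (15), origin licensing (14) and ubiquitin ligases (17), edgeR called 0 genes, with 4 higher and 4 lower, 1 and 1, 0 and 1, 0 and 0, and 0 and 3 at an unadjusted p under 0.05 (background 12.6% higher and 11.4% lower). Markers of other cell types moved in the same comparison. At an adjusted p under 0.05, 6 of 6 NK cell markers were higher (summed level 51.1 to 56.8 CPM with ADU-S100), as were 3 of 4 monocyte markers (269 to 575 CPM) and 3 of 6 skeletal muscle markers (128 to 1368 CPM). The other monocyte marker, Ccr2, had a log2 fold change of -0.32 and was not called. By the same rule 2 of 4 tested neutrophil markers and 1 of 8 T cell markers were higher. Of 7 macrophage markers 1 was higher and 2 were lower, and of 5 B cell markers 1 was lower. None of the 5 fibroblast markers was called (16293 to 20508 CPM). Their part in the levels of Cdkn1a, Cdkn2d and Cbx5 was not tested.

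Genes of those lists with the smallest p that did not pass were the D-type cyclin Ccnd3 (0.51 ± 0.13, adjusted p = 0.0513), its kinase partner Cdk6 (-0.34 ± 0.10, adjusted p = 0.0838), the repressor E2f7 (-0.51 ± 0.14, adjusted p = 0.0621) and the polymerase subunit Pola1 (-0.36 ± 0.10, adjusted p = 0.0748). Positive log2 fold changes that did not pass were those of the licensing inhibitor Gmnn (0.41 ± 0.14), the CDK inhibitor Cdkn2c (0.28 ± 0.15), the MuvB subunit Lin37 (0.27 ± 0.14) and Cdc25a (0.13 ± 0.13). Negative values were -0.29 ± 0.16 for E2f4, -0.42 ± 0.12 for Lbr, -0.38 ± 0.13 for G2e3, -0.84 ± 0.28 for Cdca7, -0.41 ± 0.16 for Anapc1, -0.31 ± 0.12 for Cdc27 and -0.34 ± 0.14 for Skp2. The origin genes Orc2, Cdc7 and Topbp1 had -0.23 ± 0.12, -0.23 ± 0.12 and -0.18 ± 0.10. Against HBSS, cyto-IL-15 and the combination gave 0 called genes in all 7 lists (background 0.0% in both). The INK4 inhibitors Cdkn2a and Cdkn2b, singled out after their values were seen, stood at 54.3 and 8.29 CPM in tumor 28LL. In the HBSS-treated tumors they stood at 299, 270.3 and 279 CPM and 49.4, 48.4 and 46.8 CPM.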

How the data were processed

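Raw counts of reads per Ensembl gene were deposited by the authors, 1 file for each tumor, in the layout of featureCounts. The submitters' processing notes name GRCm38 and mm10 as builds, STAR 2.5.2b, Trimmomatic 0.36 and bcl2fastq 2.20, DESeq2, and Subread 1.5.2 with its featureCounts. Strand setting, multi-mapping and annotation release are not given in the sources used here. Symbols were matched for 48970 of 49315 identifiers.

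For every comparison, the 6 tumors concerned were fitted alone with edgeR 4.0.16 in R 4.3.3 (TMM, filterByExpr with minimum count 10 and minimum total 15, robust quasi-likelihood F test, Benjamini-Hochberg over all tested genes), and the interaction on all 12. Differential expression meant an adjusted p under 0.05 together with a log2 fold change beyond 1 in either direction. A positive value is higher in the second-named group. SEs were derived from the F statistic, and 0.5 CPM was added before log2 of levels. Tumors count as replicates, and p-values weigh the difference between groups against the spread between tumors. The biological coefficient of variation was 0.242 for HBSS against ADU-S100 and 0.387 to 0.522 for the other pairs.

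Members and lists were chosen with earlier results of these data known. Named with all values were the 4 most abundant genes of each phase list, Mki67, Top2a, Ccnd1, Ccne1, E2f1, Mybl2 and Foxm1, any called member, and the 3 smallest p of each other list in HBSS against ADU-S100. Alternatives were DESeq2 1.42.0, limma 3.58.1 voom, RLE factors, library totals, no filter, all 12 tumors, 10 tumors, and each tumor left out. On data simulated from the HBSS-treated and ADU-S100-treated tumors, with the same spread for every gene, all tools recovered sign and size of known changes. edgeR and voom met a limit on false calls that had been set for all tools. DESeq2 exceeded it, and the limit was then kept for edgeR and voom only.

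Further summed levels of the 10 marker lists, over the 12 tumors, were these: T cell (8 genes) 19.7 to 148 CPM, B cell (5) 1.74 to 20.4 CPM, macrophage (7) 1246 to 3674 CPM and endothelial (5) 151 to 726 CPM.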

Additional observations from a re-analysis of the deposited data

How the results depend on the processing

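With the fold change threshold, the count of called members stayed at 0 under every alternative run. The share of all genes passing it under the alternatives is not given here. Without it, HBSS against the combination gave 2 members by DESeq2 on the 6 tumors, 8 in the edgeR fit of the 10 tumors other than 13 and 28LL, and 0 to 6 when each tumor was left out, with 6 only without tumor 28LL. Both fits without tumor 28LL test fewer tumors of this group, and these no-threshold counts were chosen after seeing the data. The median log2 fold change of the G2/M members was 0.31 for HBSS against cyto-IL-15 (0.050 to 0.42 when each tumor was left out) and -0.27 for cyto-IL-15 against ADU-S100 (-0.39 to -0.0069), with the values nearest 0 reached without tumor 13. The S phase median for cyto-IL-15 against ADU-S100 changed sign with library totals, from -0.057 to 0.021. Of 546 values under alternatives for the 13 members named by rule, 542 kept their side of the threshold and 4 passed it (Cdk1 in both fits without tumor 28LL, E2f1 in the 10-tumor fit and Ccne1 by DESeq2, all for the combination). Rrm2, named after its values were seen, is outside this tally and passed in those 3 fits for the combination. In 40 of them the sign differed, none called in either fit. All 40 members passed the count filter at these depths, and the effect of the number of tumors was not tested. No paired analysis was possible because any pair of groups shares at most 1 number among its tumor labels, and the replicate numbers used here only name tumors in their listed order.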
